A study of Mus musculus with 8 samples.

Results

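The RNAs described here are the non-coding transcripts of a table of LIN28A binding in mouse embryonic stem cells, without its snoRNAs and let-7 precursors. Membership was set by name and identifier, not by measured values, although the set was proposed with earlier results of these data known: every transcript with a RefSeq non-coding identifier was taken, and names starting with Snord, Snora or Mirlet7 were left out, as any histone name would have been. Of 7820 transcripts in the table, 87 were non-coding. Of these, 32 were Snord or Snora genes, 3 were let-7 precursors and none was a histone gene, which left 52 transcripts. They comprised 3 spliceosomal and vault RNAs, 3 microRNA precursors, 1 other small structured RNA, 14 host transcripts of snoRNAs and 31 long non-coding RNAs. Their lengths ran from 74 to 83437 bases, and 6 were shorter than 300 bases.

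All libraries came from A3-1, a mouse embryonic stem cell line kept in medium with 20% serum and LIF, the cytokine that holds such cells in the pluripotent state. In CLIP-seq, RNA is crosslinked to a protein by UV light, immunoprecipitated and sequenced. LIN28A was precipitated from cells given no siRNA with the in-house monoclonal antibodies 35L33G and 2J3 and with a commercial polyclonal antibody, 1 library each. Poly(A) RNA, selected on oligo-dT, was sequenced from untreated cells and from cells 48 hours after an siRNA against luciferase (siLuc, the control) or Lin28a (siLin28a), 1 library each. Ribosome footprints were sequenced after both siRNAs, but none of the 52 RNAs is in that table. No CLIP library with a control antibody or from cells without LIN28A was analysed here.

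LIN28A is an RNA-binding protein of stem and germ cells. It is best known for holding let-7 microRNA precursors, often through a GGAG motif in their loop, and for recruiting the enzymes that add uridines to them, so that mature let-7 is not made. It also binds many messenger RNAs in the cytoplasm. The non-coding RNAs of this set work in other ways. U11 and U12 snRNAs recognise the rare minor class of introns, vault RNAs belong to a large cytoplasmic particle, snoRNA hosts are spliced transcripts that release snoRNAs from their introns, and several of the long RNAs stay in the nucleus or silence imprinted genes.

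In the RefSeq gene table, 5 of the 31 long non-coding RNAs contain microRNA genes, and so do the snoRNA hosts Rian, with 3 beside 11 snoRNA genes, and 2810008D09Rik, with 1. Products of the microRNA hosts are shown because they name microRNAs that lie inside each. LOC100303645 (RefSeq symbol D7Ertd143e, chr7:3218785-3221016 in mm9) spans 7 microRNA genes of the cluster that is the main microRNA source of embryonic stem cells. The products of Mir292b are listed on the minus strand and those of the others on the plus strand. Mirg (chr12:110973191-110987667) holds 10, Meg3 2, Mir17hg 1 and H19 1. These are counts of microRNA genes lying within the listed span of each gene, so any microRNA outside that span is not counted. The mature sequences below are from RefSeq (GRCm38.p6), 5′ to 3′, with the seed (bases 2 to 8, which pair with target RNAs) in capitals. The 5 sequences shown first are from LOC100303645, and 3 of them share the seed AAGUGCU.
miR-291a-3p: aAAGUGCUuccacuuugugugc
miR-294-3p: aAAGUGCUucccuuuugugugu
miR-295-3p: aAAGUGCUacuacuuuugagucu
miR-291b-3p: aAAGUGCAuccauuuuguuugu
miR-293-3p: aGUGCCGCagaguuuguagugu
Mirg, Mir17hg and H19 carry microRNAs with other seeds, of which these are examples.
miR-410-3p: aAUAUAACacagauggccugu
miR-409-3p: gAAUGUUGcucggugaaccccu
miR-92a-3p: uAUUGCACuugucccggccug
miR-675-5p: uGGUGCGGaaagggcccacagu
The precursor Mir677, counted as a transcript of its own, gives this 5′ arm.
miR-677-5p: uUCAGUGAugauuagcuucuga
The letters GGAG, searched on the RNA strand of the hairpins, occurred in 447 of 1005 mouse hairpins (44.5%). They occurred in 2 of the 6 hairpins listed for LOC100303645, in 6 of 10 of Mirg, and in neither the 1 hairpin listed for Mir17hg nor Mir677. A match is only a match of letters.

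Deposited exon counts summed to 7698479 (35L33G), 7849235 (2J3) and 8027670 (polyclonal) in CLIP and to 9264777 (untreated), 7475174 (siLuc) and 9605641 (siLin28a) in poly(A) RNA. Lin28a stood at 465 CPM (counts scaled to the library total) in untreated cells, 354 after siLuc and 118 after siLin28a, so 33.4% of the siLuc level was left. Markers of embryonic stem cells were high (Pou5f1 1177 CPM, Esrrb 984 CPM in untreated cells). The fibroblast genes Col1a1 and Col1a2 stood at 1.73 and 0.756 CPM, Thy1 at 24.1 and Vim at 153 CPM, and each of 5 lineage markers was under 1 CPM in untreated cells. Between siLuc and siLin28a, Klf4 went from 116 to 247 CPM, Thy1 from 23.3 to 10.6 and Sox1 from 1.87 to 4.48, and their part in the siRNA results was not tested.

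CLIP enrichment is the log2 ratio of the CLIP count to the untreated poly(A) count, both plus 0.5 and scaled by TMM library sizes, given as the mean ± SD over the 3 antibodies (n = 3). Calls are from edgeR's quasi-likelihood test over all 7820 transcripts with a Benjamini-Hochberg adjusted p under 0.05. Of all transcripts tested, 34.6% were called enriched and 33.3% depleted. Among the 52 RNAs, 23 were enriched (44.2%), 17 depleted (32.7%) and 12 not called. The filter on low counts removed none of the 7820 transcripts, so passing it is no sign of an adequate input count. Of the 52, 6 had 10 or fewer untreated counts and passed only through CLIP, so their calls give no independent support. The median enrichment of the 52 was 0.18, against -0.028 over all transcripts. Calls in either direction covered 40 of the 52 (76.9%), beside 67.9% of all transcripts. When only calls of at least 2-fold were counted, 21 of the 52 were enriched and 15 depleted, beside 21.6% and 20.9% of all transcripts. With libraries scaled by total counts, the median fitted change of all transcripts moved to -0.38. The calls were then 1984 enriched and 3605 depleted over all transcripts and 20 and 20 among the 52. The calls divided by length: of the 6 RNAs under 300 bases 5 were enriched and none depleted (median 5.52), also at an unadjusted p under 0.05 and by DESeq2. Of the 46 longer ones 18 were enriched and 17 depleted (median 0.026). The 35 snoRNA and let-7 rows left out of the set had 31 enriched and 0 depleted (median 2.98), so such calls are not particular to the 52. The short RNA not called, Mir715, had a fitted change of -2.73 with a second poly(A) tally as input and -4.60 with siLuc. The input was selected on oligo-dT, and the part of that selection in this division was not tested. Without the 16 RNAs of uncertain counting (pseudogenes, overlaps with coding genes and disagreeing tallies), 14 of 36 were enriched and 13 depleted. Without the polyclonal library, 26 of 52 were enriched and 16 depleted. Together the 52 RNAs took 0.697% (35L33G), 0.774% (2J3) and 0.572% (polyclonal) of CLIP counts and 0.643% of untreated poly(A) counts.

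**Figure D1:**
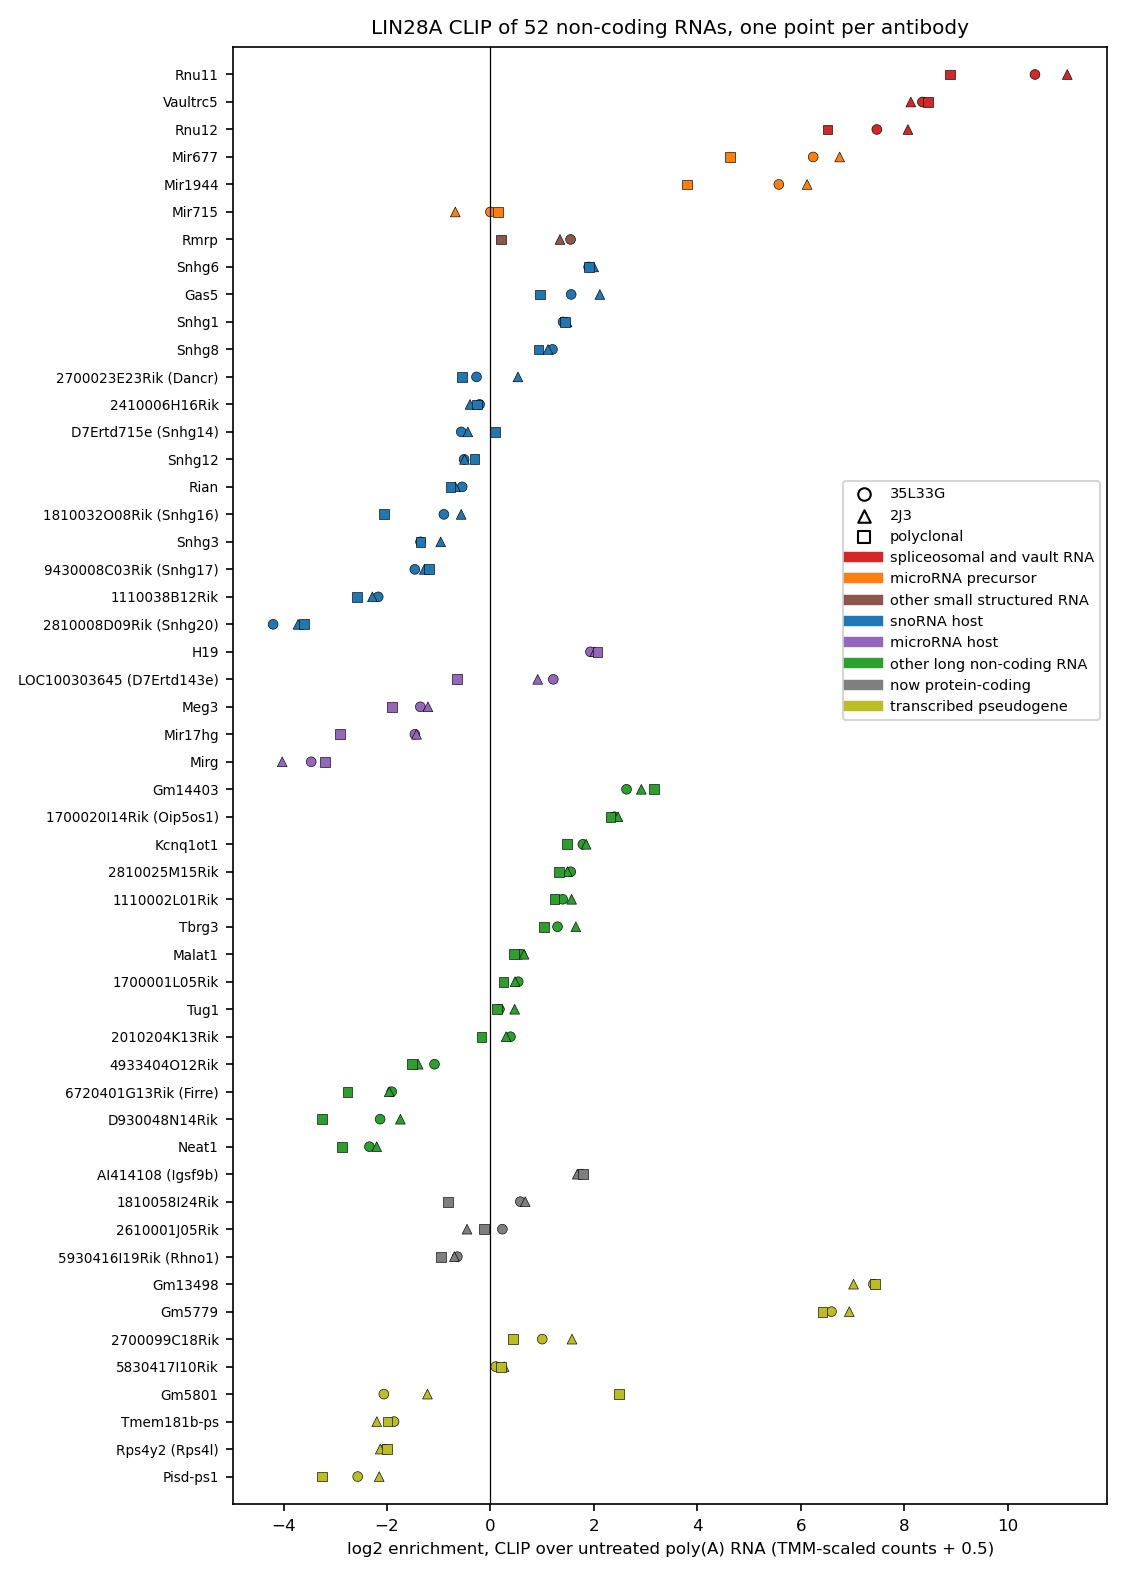
Log2 enrichment of each of the 52 RNAs, 1 point per antibody (circle 35L33G, triangle 2J3, square polyclonal), coloured by kind of RNA; the x axis is CLIP over untreated poly(A) RNA. The 3 spliceosomal and vault RNAs have the highest means, though the polyclonal value of Gm13498 (7.43) lies above that of Rnu12 (6.52), while snoRNA hosts and long RNAs lie on both sides of 0, from -3.84 for 2810008D09Rik to 7.29 for Gm13498.

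The 3 spliceosomal and vault RNAs were all enriched, beside 34.6% of all transcripts, and they were almost unseen in poly(A) RNA. With 1 to 3 untreated counts, they passed the filter on low counts only through CLIP, so these calls give no independent support. Rnu11, the U11 snRNA that binds the 5′ splice site of minor introns (chr4:131825994-131826101, 1 exon), had 1494 (35L33G), 2331 (2J3) and 491 (polyclonal) CLIP counts against 1 count in untreated poly(A) RNA. Its enrichment was 10.19 ± 1.17. Rnu12, the U12 snRNA that pairs with the branch point of the same introns (chr15:82980075-82980224), had 179, 275 and 95 CLIP counts against 1, an enrichment of 7.35 ± 0.78. Vaultrc5, the vault RNA, had 771, 668 and 853 CLIP counts against 3, an enrichment of 8.31 ± 0.17. Every CLIP count exceeded the untreated count, and the polyclonal antibody gave the lowest count of both snRNAs but the highest of Vaultrc5.

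With so few input counts the size of these ratios is poorly set. The scaled CLIP to input ratio, with its 95% counting interval, was 2105 (378 to 83149) for Rnu11, 373 (127 to 1808) for Vaultrc5 and 268 (47.9 to 10593) for Rnu12. Neither snRNA nor vault RNA carries a poly(A) tail, and the input was selected on oligo-dT. More binding and less capture in the input cannot be told apart here. Per length, Rnu11 was the densest of the 3 in CLIP, at 1797 (35L33G), 2749.7 (2J3) and 566 (polyclonal) on the RPKM scale (counts per kilobase, scaled to library depth), and with each antibody the densest of the 52 RNAs. Vaultrc5 had 290, 247 and 308 and Rnu12 155, 234 and 78.9 on the same scale. In untreated poly(A) RNA the authors' deposited RPKM was 0.999 for Rnu11, 0.939 for Vaultrc5 and 0.72 for Rnu12, where Malat1 reached 329, Rps4y2 327 and 2410006H16Rik 244.

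The messenger RNAs of the particles' proteins were called in both directions, where 34.6% of all transcripts were enriched and 33.3% depleted. Of 16 genes listed for the minor spliceosome, 10 were in the table, 4 enriched and 4 depleted: Snrnp25, a protein of the U11/U12 particle, had an enrichment of 1.07 ± 0.23, while Sf3b5, a subunit shared with the major spliceosome, had -1.81 ± 0.38. The mRNAs of both listed vault proteins in the table were depleted, Mvp, the major vault protein, at -2.06 ± 0.39 and Tep1 at -1.43 ± 0.37.

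Of the 3 microRNA precursors, 2 were enriched, beside 34.6% of all transcripts. Mir677 (chr10:127522342-127522450) had 178, 257 and 60 CLIP counts with 35L33G, 2J3 and the polyclonal antibody against 3 in untreated poly(A) RNA, an enrichment of 5.88 ± 1.10. It passed the filter on low counts only through CLIP, so its call gives no independent support. It lies inside Atp5b, a subunit of the mitochondrial ATP synthase with 29493 untreated counts. Mir1944 (chr15:79913281-79913354, 74 bases) had 788, 1165 and 236 against 24, an enrichment of 5.17 ± 1.22 (edgeR adjusted p = 8.39e-07), and lies inside Rpl3, a ribosomal protein gene. For both the polyclonal count was lowest and every CLIP count was above the input. Since reads of the host genes can fall on these stretches, their counts are uncertain.

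Mir715 (chr17:39981081-39981190) was not called. Its CLIP counts were 43, 27 and 49 against 64, an enrichment of -0.18 ± 0.44. Its input is not settled: a second poly(A) tally, deposited beside the CLIP counts, lists 376, siLuc 1148 and siLin28a 1754. With that tally as input its fitted change was -2.73 (edgeR adjusted p = 3.75e-05), and with siLuc -4.60 (edgeR adjusted p = 2.89e-12). Rmrp, the RNA of RNase MRP that cuts ribosomal RNA precursors (chr4:43505657-43505931), had 433, 380 and 175 CLIP counts against 219, an enrichment of 1.03 ± 0.73 (edgeR adjusted p = 0.0112). Its polyclonal count was below the input count, and after scaling all 3 antibodies lay above 0. The call was lost without 35L33G (fitted change 0.88, edgeR adjusted p = 0.0978) and with total-count scaling (0.78, edgeR adjusted p = 0.0755).

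Of 14 measured mRNAs of the microRNA pathway, listed for comparison, 5 were enriched and 5 depleted, beside 34.6% and 33.3% of all transcripts. Zcchc11, a terminal uridylyl transferase that acts with LIN28A on let-7 precursors, had an enrichment of 1.23 ± 0.057 and Eif2c2 (Argonaute 2) 1.07 ± 0.045. Tarbp2, a partner of Dicer, had -2.76 ± 0.74, and Dicer1 itself 0.16 ± 0.070, not called.

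Among the 14 snoRNA hosts 4 were enriched and 6 depleted, beside 34.6% and 33.3% of all transcripts. The other 4 were not called, and the median was -0.37. Snhg6 (chr1:9932106-9934199) had 1025, 1110 and 1060 CLIP counts against 407, an enrichment of 1.93 ± 0.055. Gas5, a host that responds to growth arrest (chr1:162965297-162968668), had the highest CLIP counts of the hosts, with 7969 (35L33G), 11846 (2J3) and 5428 (polyclonal) against 4004, an enrichment of 1.55 ± 0.58. Snhg1 (chr19:8797977-8800816) had 1363, 1455 and 1442 against 763 (1.44 ± 0.039), and Snhg8 (chr3:123210470-123211254) 776, 740 and 663 against 501 (1.08 ± 0.14). In these 4 hosts all 3 CLIP counts exceeded the input, and the edgeR adjusted p lay between 2.48e-09 (Snhg6) and 4.58e-05 (Snhg8).

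The lowest of the class was 2810008D09Rik (Snhg20, chr11:116938097-116940269), placed there by its RefSeq name. The RefSeq gene table lists no snoRNA gene inside it, only the microRNA gene Mir6516. It had 14, 20 and 22 CLIP counts against 395 in untreated poly(A) RNA, a change of -3.84 ± 0.32 (edgeR adjusted p = 8.97e-07). It was followed by 1110038B12Rik with 93, 87 and 72 against 623 (-2.34 ± 0.21). In both, every CLIP count was far below the input count. The others were 9430008C03Rik (Snhg17, -1.31 ± 0.14), Snhg3 (-1.22 ± 0.23), 1810032O08Rik (Snhg16, -1.17 ± 0.78) and Rian (-0.67 ± 0.11). The calls of Snhg3 and 1810032O08Rik were lost with siLuc as input (-0.60 and -0.39, edgeR adjusted p = 0.188 and 0.372). Snhg12 (-0.44 ± 0.11), D7Ertd715e (Snhg14, -0.30 ± 0.35), 2410006H16Rik (-0.29 ± 0.095) and 2700023E23Rik (Dancr, -0.094 ± 0.56) were not called. With total-count scaling, the first 3 of these were called depleted, and 2410006H16Rik was also with siLuc as input (-0.76, edgeR adjusted p = 0.000322). Snhg3, Snhg12 and Rnu11 are neighbours on chromosome 4, with 38.5 kb between Rnu11 and Snhg12 and 40.9 kb between Snhg12 and Snhg3. They had enrichments of -1.22, -0.44 and 10.19.

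Host and snoRNA could be set side by side in 9 pairs, in which a snoRNA of the CLIP table lies within the span of a host. In all 9 the mean enrichment of the snoRNA was above that of its host. Only snoRNAs listed with CLIP counts could form a pair, so the 9 are not a free sample. Among those that could not were Snora61, Snora44 and Snora16a in Snhg12, with 75, 42 and 25 untreated counts. Snord1c in 1810032O08Rik, with 2, was also missing. For 1110038B12Rik the snoRNA Snord52 had 291 (35L33G), 521 (2J3) and 90 (polyclonal) CLIP counts against 44, an enrichment of 2.98 ± 1.30 beside -2.34 ± 0.21 for the host. Snord1b in 1810032O08Rik reached 3.71 ± 0.93 beside -1.17 ± 0.78. The pair with the closest values was 2410006H16Rik and Snord49a, at -0.29 ± 0.095 and 0.16 ± 1.04. Of the 9 snoRNAs 8 were called enriched, all but Snord49a, beside 34.6% of all transcripts. The snoRNA and let-7 rows left out of the set, which include these 9, had 31 of 35 enriched. The 9 snoRNAs, like the snRNAs, carry no poly(A) tail, and the part of the oligo-dT selection in the gap was not tested. The annotated exons cover 75.7% of the span of Gas5, 82.6% of 2700023E23Rik and, as 1 exon, all of Snhg8, so the counts of these hosts may include sequence of their snoRNAs.

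**Figure D2:**
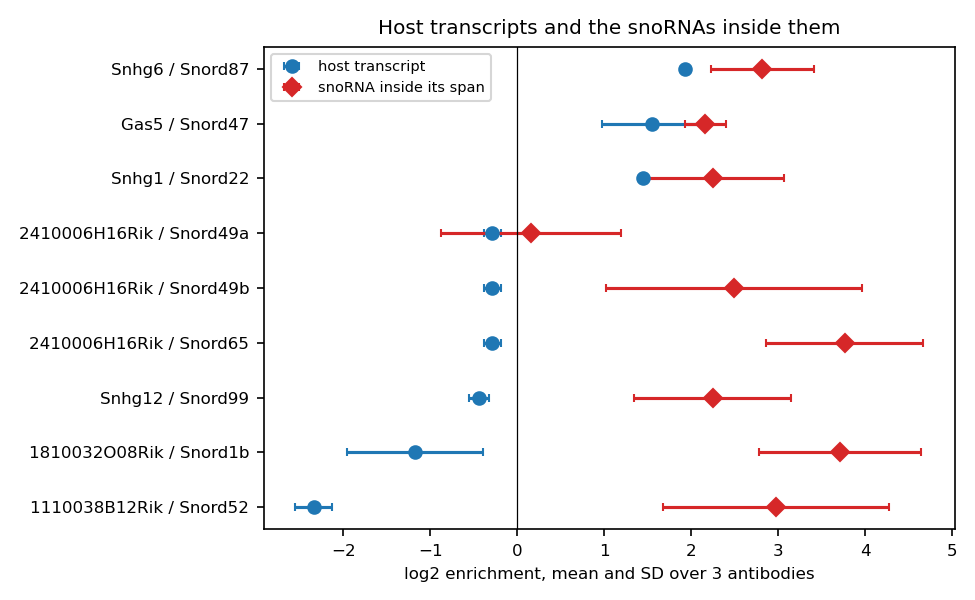
Mean log2 enrichment of host transcripts (circles) and of snoRNAs inside them (diamonds), with SD over the 3 antibodies, for 9 pairs. Only snoRNAs listed with CLIP counts could form a pair. Each diamond lies to the right of its circle, with the smallest gap for 2410006H16Rik and Snord49a (-0.29 and 0.16) and the largest for 1110038B12Rik and Snord52 (-2.34 and 2.98).

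The mRNAs of snoRNA-binding proteins gave 3 enriched and 3 depleted of 11 in the table, beside 34.6% and 33.3% of all transcripts. They ran from Naf1, an assembly factor (1.64 ± 0.19), to Rrp9, a protein of the U3 particle (-1.97 ± 0.041). Of 8 mRNAs of nonsense-mediated decay, a pathway that degrades many spliced snoRNA hosts, 3 were enriched and 2 depleted, with Upf1, its helicase, at -1.15 ± 0.16.

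The 5 microRNA hosts differed from each other. H19, the maternally expressed imprinted RNA that carries miR-675 (chr7:149761437-149764051), had 707, 758 and 799 CLIP counts against 274 in untreated poly(A) RNA, an enrichment of 2.01 ± 0.068 (edgeR adjusted p = 2.71e-08). The 3 antibodies agreed closely. Mirg, the microRNA host of the imprinted Dlk1-Dio3 region, was the most depleted, with 25, 17 and 31 against 417 (-3.56 ± 0.42, edgeR adjusted p = 1.71e-06). Mir17hg, whose listed span holds miR-92a (chr14:115443612-115445950), had 144, 149 and 54 against 589 (-1.93 ± 0.85). Meg3 (chr12:110783608-110806810) had 1069, 1198 and 751 against 4056 (-1.49 ± 0.37).

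Mirg, Meg3 and Rian, with changes of -3.56, -1.49 and -0.67, are maternally expressed neighbours, with 35.3 kb between Meg3 and Rian and 73.3 kb between Rian and Mirg. All 3 were called depleted, beside 33.3% of all transcripts. A list of imprinted protein-coding genes, from this and other regions, had 2 members in the table. Peg3 (0.030 ± 0.065) was not called, and Zrsr1 (-0.91 ± 0.17), also counted in the minor spliceosome list, was depleted.

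LOC100303645, which carries the embryonic stem cell cluster, divided by antibody: 699 (35L33G) and 574 (2J3) CLIP counts against 446 gave enrichments of 1.22 and 0.92, while 198 (polyclonal) gave -0.64. It was not called (0.50 ± 1.00, edgeR adjusted p = 0.133). Without the polyclonal library it was (fitted change 1.07, edgeR adjusted p = 7.78e-06).

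Of the 14 other long non-coding RNAs 8 were enriched and 4 depleted, beside 34.6% and 33.3% of all transcripts, and 2 were not called. Gm14403 had 265, 327 and 394 CLIP counts against 63 (2.90 ± 0.27). 1700020I14Rik (Oip5os1 or Cyrano, an RNA that brings about the decay of miR-7; chr2:119420032-119426480) had 1083, 1152 and 1061 against 305 (2.40 ± 0.072, edgeR adjusted p = 1.68e-10). Kcnq1ot1, the imprinted antisense RNA that silences neighbours of Kcnq1 (chr7:150399016-150482452), had 1272, 1345 and 1062 against 546 (1.71 ± 0.20). All CLIP counts of these 3 lay above the input. 2810025M15Rik (1.46 ± 0.12), 1110002L01Rik (1.40 ± 0.17) and Tbrg3 (1.33 ± 0.31) were also enriched, but they and Kcnq1ot1 overlap a coding gene, and the strand of counting is not given in the sources used here. With the second poly(A) tally as input, in which 1110002L01Rik has 265 counts in place of 100, its fitted change was -0.033.

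Nuclear RNAs stood on both sides. Malat1, an abundant RNA of nuclear speckles (chr19:5795690-5802671), made up 37.6% to 44.2% of the CLIP counts of the 52 RNAs, with 21707, 22822 and 20328 CLIP counts against 21309. After scaling it was enriched by 0.57 ± 0.099 (edgeR adjusted p = 1.81e-07), and its count with the polyclonal antibody alone lay below the input count. Neat1, the scaffold of paraspeckles, starts 39.6 kb from Malat1 (chr19:5842302-5845478) and was depleted, with 379, 423 and 270 against 2848 (-2.47 ± 0.35, edgeR adjusted p = 1.52e-10). In Neat1 no CLIP count came near the input. 6720401G13Rik (Firre, an X-linked nuclear RNA) had 185, 181 and 105 against 1032 (-2.21 ± 0.48), and D930048N14Rik, which overlaps N4bp3, 100, 133 and 47 against 653 (-2.38 ± 0.79). 4933404O12Rik was depleted too (219, 178 and 167 against 688, -1.33 ± 0.22), and 2010204K13Rik (0.17 ± 0.30) was not called. Tug1 (0.26 ± 0.18, edgeR adjusted p = 0.104) was not called, though it was without the polyclonal library (0.33, edgeR adjusted p = 0.0403). The call of 1700001L05Rik (0.42 ± 0.15, edgeR adjusted p = 0.0321) was lost without 35L33G or without 2J3 (edgeR adjusted p = 0.0883 and 0.066) and with total-count scaling (0.059, edgeR adjusted p = 0.762).

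The mRNAs of proteins that act with such RNAs were listed too: 5 of 10 were enriched and 1 depleted, beside 34.6% and 33.3% of all transcripts. Spen (1.32 ± 0.087) and Suz12 (1.28 ± 0.059), both known from silencing, were the highest, and Hnrnpk (-0.76 ± 0.18) the lowest.

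RefSeq now lists 4 of the long RNAs as protein-coding. AI414108 (Igsf9b) was enriched (766, 737 and 808 CLIP counts against 337, 1.74 ± 0.055) and 5930416I19Rik (Rhno1) depleted (182, 177 and 150 against 421, -0.76 ± 0.17, edgeR adjusted p = 0.0288), a call lost without the polyclonal library (edgeR adjusted p = 0.0501) and with siLuc as input (-0.15). 2610001J05Rik (-0.11 ± 0.34) was not called. 1810058I24Rik, counted by 637 and 689 with the monoclonals and 249 with the polyclonal antibody against 633, was not called (0.14 ± 0.83), but was without the polyclonal library (0.63, edgeR adjusted p = 0.00576).

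A further 8 are transcribed pseudogenes, whose reads may belong to their parent genes, so that their counts are uncertain. Gm13498 had 285, 221 and 299 CLIP counts against 2 (7.29 ± 0.23) and Gm5779 358, 460 and 327 against 5 (6.65 ± 0.26). The antibodies agreed closely in both, and both input counts are near the limit of detection. Both passed the filter on low counts only through CLIP, so their enriched calls give no independent support. Their scaled ratios were 196 (54.2 to 1624) and 112 (47.7 to 345). 5830417I10Rik (0.19 ± 0.082) was not called. Pisd-ps1 (-2.66 ± 0.56), Rps4y2 (Rps4l, -2.06 ± 0.067) and Tmem181b-ps (-2.02 ± 0.17) were depleted. The call of 2700099C18Rik (1.00 ± 0.57, edgeR adjusted p = 0.0436) was lost without 35L33G or without 2J3 (edgeR adjusted p = 0.0921 and 0.231), with siLuc as input (0.14), with the second poly(A) tally (0.94, edgeR adjusted p = 0.0724) and with total counts (0.71, edgeR adjusted p = 0.176).

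All 3 antibodies lay on the same side of 0 in 44 of the 52 RNAs (84.6%), beside 89.7% of all transcripts, but they differed in size. The polyclonal value lay at least 2-fold below the mean of the monoclonals in 10 of the 52 RNAs (19.2%), beside 1.25% of all transcripts, and at least 2-fold above it in 1, beside 0.46%. With 100 CLIP counts or more required, which all 10 have, the share of all transcripts was 1.12%. It was below both monoclonals in 33 of the 52 (63.5%), against 33.7% of all transcripts. Of the 6 RNAs under 300 bases, 5 were among the 10, all but Mir715. The SD over antibodies was above 0.5 in 15 of the 52 (28.8%), beside 5.15% of all transcripts.

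The same difference was fitted by edgeR after these values had been seen, with 1 polyclonal library assumed to vary like the 2 monoclonal ones. The fit restates the difference and gives no independent support, so its calls are printed as a description without p-values. It called 9 of the 52 lower, beside 0.448% of 7819 transcripts, where DESeq2 called 3 of the 52 among 15 transcripts in all. The fitted log2 difference, polyclonal minus monoclonals, was -1.99 for Rnu11, -2.08 for Mir1944, -1.89 for Mir677 and -1.25 for Rmrp. The longer ones were LOC100303645 (-1.72), 1810058I24Rik (-1.45), 1810032O08Rik (-1.34), Gas5 (-0.90) and Meg3 (-0.63). Rnu12 (-1.29) did not pass. In the same direction, 24 of the 35 snoRNA and let-7 rows that were left out lay at least 2-fold lower with the polyclonal antibody. Transcript length moves with this pattern, and its part was not tested.

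Of the 52 RNAs, only Gm5801, a pseudogene, was called higher in that fit with the polyclonal antibody, beside 0.0895% of all transcripts. It had 13 (35L33G) and 24 (2J3) CLIP counts but 323 (polyclonal), against 83 in the input, and its polyclonal value was 4.08 higher on the log2 scale. Over the 3 antibodies its mean enrichment was -0.27 ± 2.42. The fit against the input gave a change of the other sign, 1.06, which was not called. Vaultrc5, with a difference of 0.21, was not called.

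**Figure D3:**
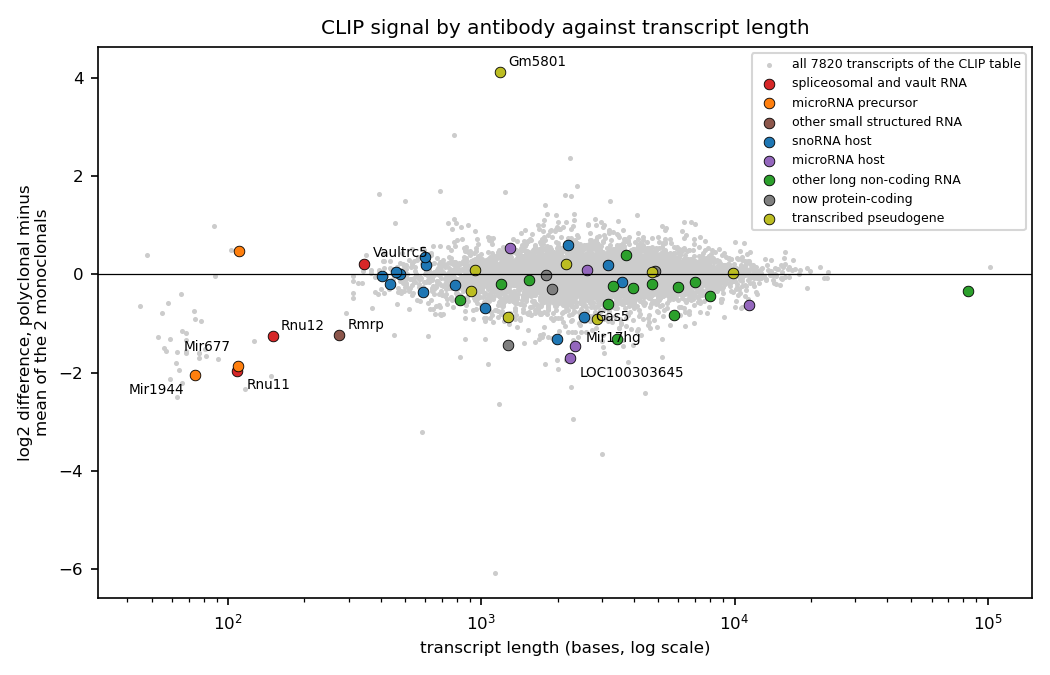
Difference between the polyclonal and the mean monoclonal CLIP value (log2, y axis) against transcript length (x axis, log scale) for all 7820 transcripts (grey) and the 52 RNAs (coloured by kind). Among the 52, the shortest RNAs apart from Mir715 lie between -1.24 and -2.05, and Gm5801 is the highest.

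The siRNA libraries ask whether the level of these RNAs in poly(A) RNA moved when Lin28a was lowered. There is 1 library per condition, so no p-value is given; log2 ratios of CPM carry 95% counting intervals only, and a change means at least 2-fold with 50 counts or more. Of the 52 RNAs 45 had enough counts, while Rnu11, Rnu12, Vaultrc5, Mir677, Mir1944, Gm13498 and Gm5779 did not. Between siLin28a and siLuc none was at least 2-fold higher, beside 3.61% of 11217 transcripts, and 1 was at least 2-fold lower, beside 1.29%. In bulk RNA, fewer cells with an RNA and less of it per cell cannot be told apart. The median was -0.079, against 0.011 over all transcripts.

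The lower RNA was D7Ertd715e, matched by synonym to Snhg14, the host of the imprinted snoRNAs near Snrpn and Ube3a. The counted transcript has 3 exons in a span of 4855 bases, and no snoRNA transcript of the poly(A) data overlaps it. It had 623 counts in untreated cells, 602 after siLuc and 373 after siLin28a, a log2 ratio to siLuc of -1.05 (-1.24 to -0.86) and to untreated of -0.79 (-0.98 to -0.60). In CPM these levels were 67.2, 80.5 and 38.8. Next lowest against siLuc were 2700099C18Rik (-0.82), Snhg1 (-0.79), 4933404O12Rik (-0.53) and Tug1 (-0.50). Tug1 stood at 169, 169 and 119 CPM in untreated, siLuc and siLin28a cells, so that siLuc and untreated cells were alike and siLin28a below both. Snhg1 stood at 82.4, 110 and 63.2 CPM, with siLuc above untreated, and 2700099C18Rik at 13.2, 25.6 and 14.5 CPM, where the siLuc library stands apart from the other two.

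The highest ratios to siLuc belonged to AI414108 (0.83), Mirg (0.49), 2810008D09Rik (0.40), 1110038B12Rik (0.39) and LOC100303645 (0.39). AI414108 stood at 36.4, 20.1 and 35.8 CPM in untreated, siLuc and siLin28a cells, so its log2 ratio to untreated was -0.023 (-0.24 to 0.20). LOC100303645 stood at 48.1, 50.3 and 66.1 CPM, above both controls after siLin28a, and 1110038B12Rik at 67.2, 76.3 and 100.3 CPM. Mirg stood at 45.0, 34.9 and 48.9 CPM, with siLuc the lowest. All of these differences were below 2-fold.

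Against untreated cells the siLin28a library held 1 RNA at least 2-fold higher (beside 3.68% of 11361 transcripts) and 3 lower (beside 1.7%), named here after their values were seen. The higher RNA was Mir715, at 6.91, 154 and 183 CPM in untreated, siLuc and siLin28a cells, so both siRNA libraries stood far above the untreated library. Its untreated level is not settled, since the second poly(A) tally lists 376 counts where the untreated library has 64. The lower ones were Rmrp (23.6, 12.6 and 9.47 CPM), 1110002L01Rik (10.8, 5.62 and 4.37 CPM) and 1700001L05Rik (91.3, 61.1 and 44.3 CPM), each already below untreated after siLuc. Between siLuc and untreated cells Mir715 alone passed, upwards, beside 0.963% of 11112 transcripts, and none fell, beside 1.38%. These 3 comparisons share libraries.

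Enrichment in CLIP and the change after siLin28a against siLuc were weakly related across the 45 RNAs, which share their libraries. Spearman's rho was -0.12, beside -0.31 over 7763 transcripts, given as a description.

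**Figure D4:**
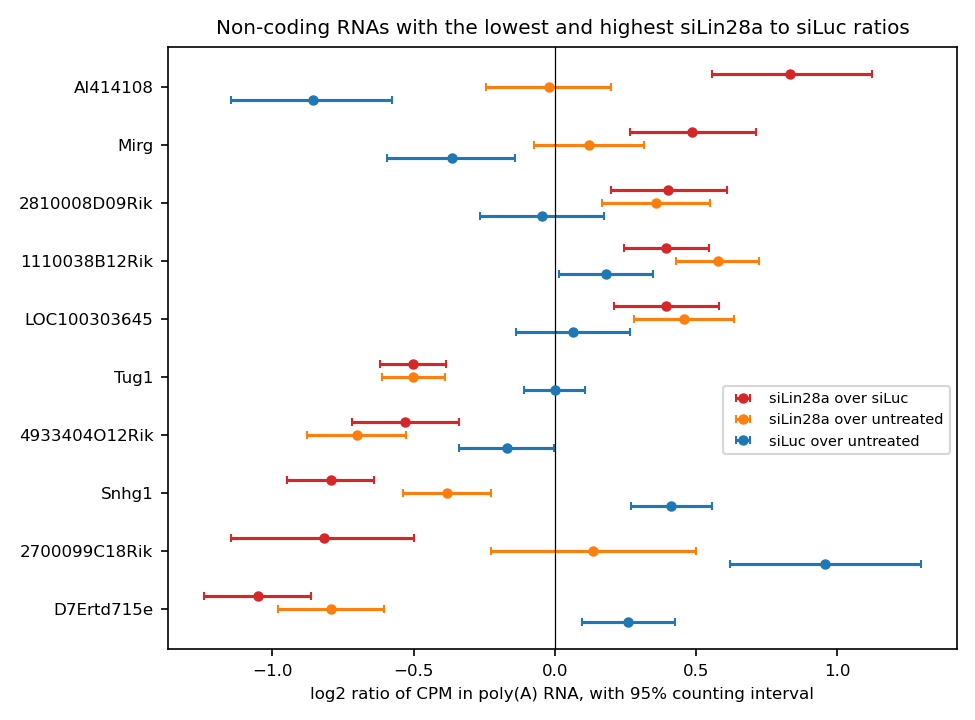
Log2 ratios of CPM in poly(A) RNA for the 5 RNAs with the highest and the 5 with the lowest siLin28a to siLuc ratios, with 95% counting intervals and 1 library per condition. D7Ertd715e is lowest at -1.05, and the high ratio of AI414108 to siLuc (0.83) is absent against untreated cells (-0.023).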

How the data were processed

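Poly(A) RNA, LIN28A CLIP and ribosome footprints of A3-1 cells were measured in 8 libraries of 6 groups. The deposited counts, per RefSeq transcript, are whole numbers (exon counts were used), and the RPKM values of untreated cells are the authors', per the file headers; RPKM served only to compare levels per length. The build mm9, GSNAP and bedtools are named per the submitters' processing notes; no source used here gives the counting rule or strand. Of the per-sample columns 30 were not used.

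Members and gene lists were chosen with earlier results of these data known. All RefSeq names come from the supplied table (GRCm38.p6), in which 50 of 52 RNAs were found (43 by accession, 7 by symbol or synonym). The 2 not found were Mir1944 and Mir715, which were classed as microRNA precursors by name only. CLIP (3 libraries) was compared with untreated poly(A) RNA (1 library) with edgeR 4.0.16 in R 4.3.3 (quasi-likelihood test, TMM, filterByExpr, adjusted p under 0.05). The input is assumed to vary like the antibodies, which are not stated to be separate cultures, so p-values reflect only how these libraries differ, and that may be technical. The siRNA ratios used a pseudocount of 0.5 and exact Clopper-Pearson intervals at 95%, which cover counting error only. DESeq2 1.42.0, other scalings, filters, inputs and pseudocounts were tried, and scripts were tested on simulated data. Of the 52 RNAs, 16 are of uncertain counting: pseudogenes (8), overlaps with a coding gene (9) and disagreeing poly(A) tallies over 2-fold (2), with some in more than 1 class. The text names every RNA of a class of 12 or fewer, the 8 highest and 8 lowest of larger classes, and for siRNA the 5 highest and 5 lowest; Malat1, Tug1, Gm5801 and the other long RNAs beyond these were named after their values were seen. The comparison of antibodies and the alternative without uncertain RNAs were also chosen after seeing the data.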

Additional observations from a re-analysis of the deposited data

Results flagged for a closer look

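In 5 RNAs the polyclonal value lay on the other side of 0 from both monoclonals, which is why they are given here. The polyclonal log2 enrichment was -0.64 in LOC100303645 and -0.82 in 1810058I24Rik. It was 2.48 in Gm5801, -0.17 in 2010204K13Rik and 0.090 in D7Ertd715e (Snhg14). With 1 polyclonal library, these differences have no independent test.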

How the results depend on the processing

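Of the 52 RNAs, 33 kept their direction and their side of the threshold under all 9 alternatives of the CLIP fit. Without the RNAs of uncertain counting, 14 of 36 were enriched. The median fitted log2 change of long non-coding RNAs was 0.51 with siLuc as input and -0.082 with total counts, in place of 0.28. For snoRNA hosts it was -0.48 with siLuc, -0.73 with total counts and from -0.50 to -0.37 when an antibody was left out, in place of -0.36. For spliceosomal and vault RNAs it was 10.67 with the second poly(A) tally, 10.59 with siLuc and 8.11 with total counts, in place of 8.46. The comparison of antibodies gave 3 lower RNAs by DESeq2 in place of 9. The cause of these shifts was not tested. Uncalled or uncertain RNAs that changed sign were 1810058I24Rik (-0.082), Tug1 (-0.10), 2010204K13Rik (-0.17) and 5830417I10Rik (-0.17) with total counts, 1110002L01Rik (-0.033) and 5830417I10Rik (-0.36) with the second poly(A) tally, and 2700023E23Rik with siLuc (0.39). With each antibody left out in turn, values ran from -0.40 to 0.19 for 2700023E23Rik, -0.28 to 0.066 for 2610001J05Rik, -0.31 to 0.070 for Mir715 and -1.60 to 1.59 for Gm5801. No paired analysis was possible because the single input library shares no set of replicate numbers with the 3 antibodies. With a pseudocount of 5, enrichment was 8.20 for Rnu11, 7.13 for Vaultrc5, 5.82 for Gm13498, 5.81 for Gm5779, 5.40 for Rnu12 and 4.74 for Mir677, which have 1 to 5 input counts; both pseudogenes then stood above Rnu12.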
